A study of Rattus norvegicus with 24 samples.

Results

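Genes that mark activated macrophages were followed in rat lung, in a set of 10 members: Mmp12, Spp1, Gpnmb, Trem2, Chi3l1, Atp6v0d2, Ctsk, Lpl, Fabp5 and Slamf9. The members were chosen by name, with earlier results of these samples known, among them high Mmp12 and Spp1 in samples numbered 2 and a lean of Mmp12 toward letter G. Levels by letter and by number are therefore descriptions, and no count over the 10 members supports a pattern. Of the 30667 genes in the deposited table, 9 members were found by name, and Chi3l1 was found as Chil1, a synonym in the rat RefSeq gene table. The study set up a lung cancer model with smoky coal, a bituminous coal whose smoke carries polycyclic aromatic hydrocarbons. mRNA of lung tissue was sequenced in 24 samples, each titled by one of the letters A, B, C and G joined to a number between 1 and 6, which gives 6 samples per letter and 4 per number. All samples carry the label smoky coal. Strain, age, dose, time, the meaning of the letters and numbers, and whether any letter is a control are not given in the sources used here.

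Macrophages that take up lipid, debris or foreign particles switch on a shared set of genes for tissue remodelling, lipid handling and lysosomal breakdown. Secreted products of this state include the elastase MMP12 and osteopontin (Spp1), and the receptor TREM2, which senses lipids and signals through the adaptor TYROBP, is needed for parts of it in several tissues. In the lung, where alveolar macrophages clear surfactant and inhaled particles, MMP12 is known as the main elastase of macrophages and is linked to emphysema after smoke exposure. Several members are not confined to macrophages: lipoprotein lipase is made by many tissues, fatty acid binding protein 5 by epithelium, cathepsin K by fibroblasts and osteoclasts, and osteopontin by bone and epithelium.

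Values are normalized read counts per gene, and their sums per sample lay between 61717516 and 66007148. The submitters' processing notes name STAR, a read aligner, and GRCm38, an assembly of the mouse genome, for samples labelled rat. Of the row names, 11533 (37.6%) have the form of mouse gene models, a form found in 3 of the 47286 symbols of the rat RefSeq table. A level may therefore depend on how well rat reads match mouse sequence, which was not tested, and levels of different genes were not compared. The summed level of 9 neutrophil genes was highest in A2 (35950) and C2 (23268), and that of 5 skeletal muscle genes in A4 (64451) and B4 (15243), with at most 17615 and 3042 in the other samples. Macrophages were present by their markers: Cd68 had at least 1878 normalized counts and Csf1r at least 12280 in every sample. Of the markers used here for alveolar macrophages, Marco (at most 9.72), Chil3 (at most 14.6) and Ear2 (at most 31.9) were near 0 in all samples. Fabp1 was low as well, at most 81.1. Every other gene of that list had at least 391.6 normalized counts in every sample, with Mrc1 at 7980 or more and Abcg1 at 14030 or more. In bulk tissue, fewer cells of a type and less RNA per cell cannot be told apart.

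Promoter windows from RefSeq (build GRCr8) were found for 7 of the 10 members, those of Atp6v0d2, Lpl and Fabp5 being named only. Each window ends at the transcript start that the promoter table uses, which can lie within the gene's full span: 37 of 250 bases of the Slamf9 window, 18 of the Trem2 window and all 250 of the Spp1 window do. The windows of 4 members are shown, the protease genes Mmp12 and Ctsk and the membrane protein genes Gpnmb and Trem2, to set genes with different patterns side by side, and that of Trem2 is cut to the 232 bases outside its span. They are written 5′ to 3′ on the gene's strand. Capitals mark matches to 3 motifs of macrophage and lysosome regulators, searched on both strands: TGANTCA (AP-1), TCANGTG (MITF and the TFE factors) and GAGGAA (a core of PU.1 sites). No capital run belongs to more than 1 motif.
Mmp12, chr8:12866402-12866651, plus strand: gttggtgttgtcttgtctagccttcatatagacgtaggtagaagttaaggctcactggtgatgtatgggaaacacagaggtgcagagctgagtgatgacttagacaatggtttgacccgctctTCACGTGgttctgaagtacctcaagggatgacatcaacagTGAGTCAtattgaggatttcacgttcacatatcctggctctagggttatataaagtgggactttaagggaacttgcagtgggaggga
Ctsk, chr2:185747298-185747547, plus strand: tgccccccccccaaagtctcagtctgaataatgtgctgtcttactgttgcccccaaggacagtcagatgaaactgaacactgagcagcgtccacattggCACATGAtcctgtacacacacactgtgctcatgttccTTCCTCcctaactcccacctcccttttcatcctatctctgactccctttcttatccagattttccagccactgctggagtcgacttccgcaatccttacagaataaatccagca
Gpnmb, chr4:79340878-79341127, plus strand: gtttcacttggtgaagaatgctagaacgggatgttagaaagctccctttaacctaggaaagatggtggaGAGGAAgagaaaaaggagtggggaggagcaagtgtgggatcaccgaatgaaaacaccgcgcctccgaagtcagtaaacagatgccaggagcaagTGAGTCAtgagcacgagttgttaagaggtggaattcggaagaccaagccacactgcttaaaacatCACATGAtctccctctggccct
Trem2, chr9:20151798-20152029, minus strand: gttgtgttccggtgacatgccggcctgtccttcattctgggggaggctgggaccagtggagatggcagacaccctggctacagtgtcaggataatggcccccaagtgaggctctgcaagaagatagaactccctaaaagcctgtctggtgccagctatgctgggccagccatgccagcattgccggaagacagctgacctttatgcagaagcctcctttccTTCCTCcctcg
The AP-1 letters were in 2 of the 7 windows, Mmp12 and Gpnmb, at 87 to 81 bases before the start in each, and in 6.34% of all 33469 windows. The MITF and TFE letters were in 3 of the 7, Mmp12, Gpnmb and Ctsk, and in 11.5% of all. The PU.1 letters were in 4 of the 7, Gpnmb, Trem2, Ctsk and Slamf9, where the match lies within the gene's span, and in 23.3% of all. These are letter matches in a short window, not sites of binding.

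Mmp12, the macrophage elastase, was the member that stood out most in samples numbered 2. Its normalized counts there were 647 in A2, 857 in B2, 508 in C2 and 1797 in G2. The other samples had 61.3 to 180 in A, 44.1 to 141 in B, 61.5 to 305 in C and 161 to 267 in G. The sample numbered 2 was the highest of its letter in all 4 letters, with no overlap, by a ratio to the median of the other 5 samples of 3.72 in C to 10.2 in G. Over the whole table, 2.87% of genes were highest in number 2 in all 4 letters. The log2 difference of number 2 from the mean of the other 5 numbers, with letter as a term in the fit, was 2.81 (SE 0.29). At the other end, numbers 3, 4 and 5 each lay below the mean of the other numbers, which includes number 2, in 4 of 4 letters. Number 4 had the lowest mean log2 difference, -1.29, but was the lowest of its letter in only 1 of 4 letters.

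Ctsk encodes cathepsin K, a lysosomal and secreted protease that cuts collagen. It had 1011 normalized counts in A2, 1189 in B2, 791 in C2 and 2034 in G2, against 590 to 1789 in the other samples. Only G2 was the highest of its letter. The next highest samples were B3 with 1789 and C6 with 1366. The log2 difference of number 2 was 0.35 (SE 0.19), and without G2 it was 0.01. The partner in this pattern was Atp6v0d2, which encodes the d2 subunit of the membrane part of the proton pump that acidifies lysosomes and the osteoclast's resorption space. It reached 371 in B3, 199 in G2 and 198 in C6, where the median of all samples was 97.7. B3, C6 and G2 were the highest of their letters for both genes. Atp6v0d2 had 133 in A2, 82.5 in B2 and 83.9 in C2, each within the range of its letter's other samples.

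The secreted glycoproteins Spp1 and Chi3l1 were highest in A2. Spp1, osteopontin, is a ligand of the receptor CD44 and of integrins, and had 1357 normalized counts in A2, 174 in B2, 736 in C2 and 444 in G2. The other samples had 67.3 to 208 in A, 59.2 to 334 in B, 29.8 to 312 in C and 28.1 to 179 in G. Thus B2 overlapped the other B samples, with B3 at 334 above it, and the remaining number 2 samples did not overlap their letters. The lowest values of Spp1 were in numbers 5 and 6: number 5 lay below the mean of the other numbers in 4 of 4 letters, by a mean log2 difference of -1.60.

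Chi3l1 encodes a chitinase-like protein without enzyme activity that is secreted by macrophages and epithelium in inflammation. It had 33213 normalized counts in A2, 9057 in B2, 19125 in C2 and 6815 in G2. The highest other sample was A3 with 13026. A2, C2 and G2 were the highest of their letters, but G2 exceeded the median of the other G samples only by a ratio of 1.16, against 4.07 for A2. The neutrophil alarmin gene S100a9 had the same order of the number 2 samples, with 17610 in A2, 11730 in C2, 4270 in B2 and 2603 in G2. This order was held by 12.7% of genes with a mean of at least 10, among them Timp1 and Il1b. Of the other neutrophil genes, S100a8, Csf3r, Cxcr2, Mmp8 and Ltf shared it, and Retnlg, Camp and Ngp did not. Ngp had the reverse order, with 62.9 in G2 and 18.7 in A2. The part of neutrophils in the Chi3l1 levels was not tested.

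Slamf9, a receptor of the SLAM family on myeloid cells, was the member most fully divided by number. Its normalized counts were 1885 in A2, 1294 in B2, 1096 in C2 and 1382 in G2, and 153 to 500 in the 20 other samples. All 4 samples numbered 2 lay above all others, as they also did for Mmp12 and Fabp5. The share of all genes with this split was not counted, so nothing is read from it. Number accounted for 92.7% of the variance of its log2 values and letter for 1.47%. The median over all genes was 37.1% for number and 9.45% for letter. The log2 difference of number 2 was 2.54 (SE 0.16), and it ranged from 2.20 to 2.83 over the letters.

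**Figure D1:**
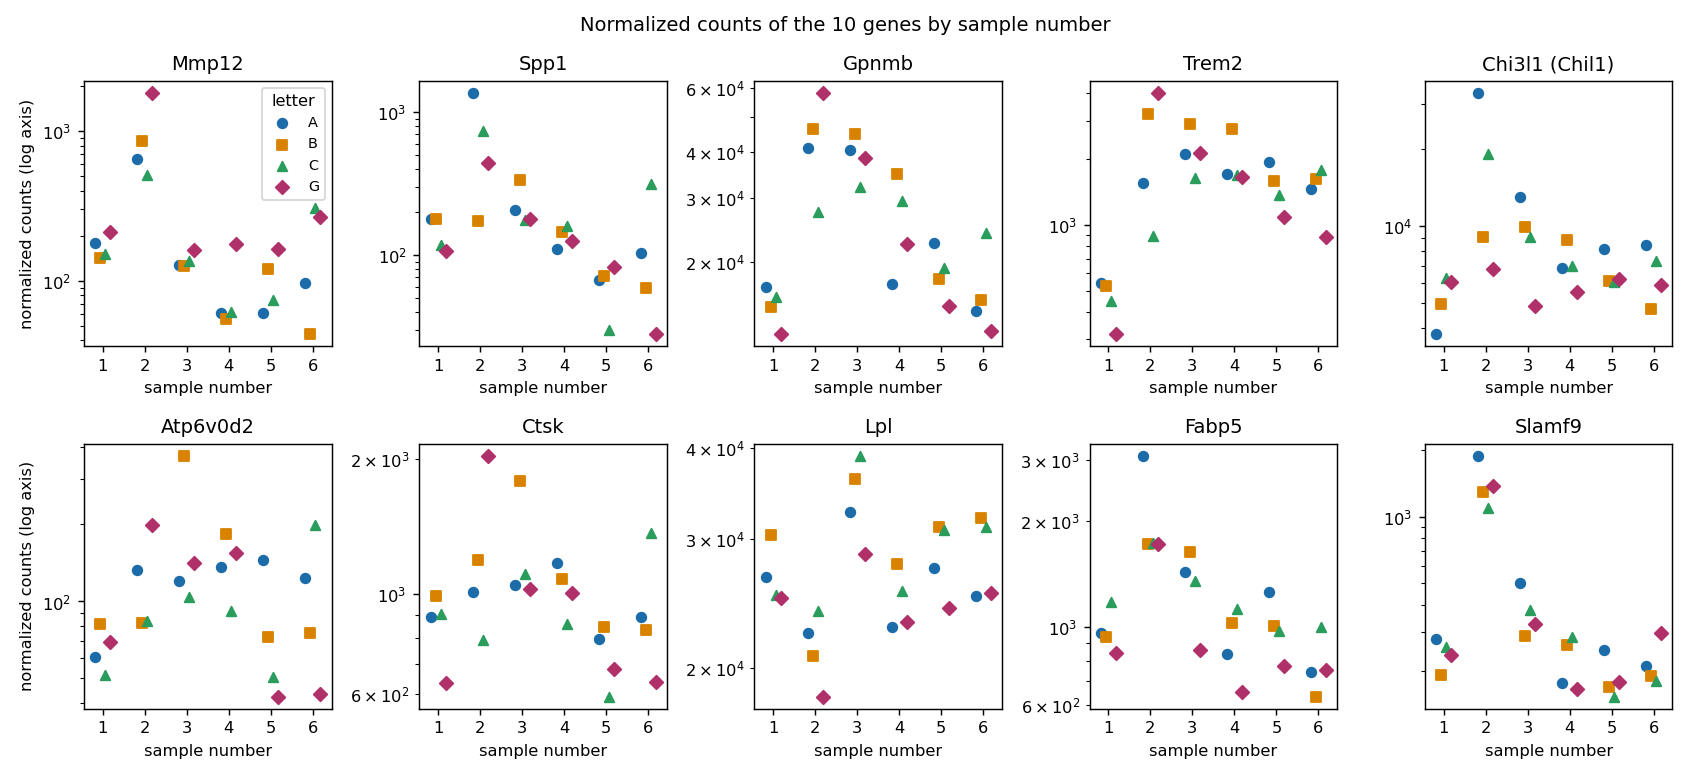
Normalized counts (log axis) of each of the 10 genes against the sample number, 1 point per sample, with color and shape giving the letter. Mmp12, Slamf9 and Fabp5 were highest in number 2 in all 4 letters, Lpl was lowest there and highest in number 3, and Trem2 was lowest in number 1.

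Gpnmb encodes a membrane glycoprotein of lysosomes and melanosomes that rises when lysosomes are loaded. It had 41189 normalized counts in A2, 46439 in B2, 27389 in C2 and 58248 in G2. Samples numbered 3 were close behind, with 40513 in A3, 44855 in B3, 32092 in C3 and 38578 in G3, and C3 was above C2. Samples numbered 1 had 17017 in A1, 15054 in B1, 15977 in C1 and 12651 in G1. Numbers 2 and 3 were thus above number 1 in every letter, with no overlap between these groups of 4. How many of all genes do the same was not counted.

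Trem2 separated number 1 from the rest instead. It had 543 normalized counts in A1, 527 in B1, 448 in C1 and 317 in G1, while the 20 other samples had 881 to 4017. Number 1 was the lowest of its letter in all 4 letters, a pattern that 1.92% of all genes shared. The mean log2 difference of number 1 from the other numbers was -1.97, with an SD of 0.36 over the 4 letters. In number 2 the letters went apart, with 4017 in G2 and 3234 in B2, the highest values of all, but 1551 in A2 and 887 in C2. The log2 difference of number 2 was 0.66 (SE 0.24), and without G2 it was 0.22.

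The lipid handling members moved in opposite directions in number 2. Lpl, lipoprotein lipase, which releases fatty acids from lipoproteins, had 22352 normalized counts in A2, 20773 in B2, 23923 in C2 and 18281 in G2. The other samples had 22768 to 38991. Number 2 was the lowest of its letter in all 4 letters, as for 2.3% of all genes. Number 3 was the highest in all 4, with 32676 in A3, 36194 in B3, 38991 in C3 and 28664 in G3, as for 0.893% of all genes. The range was narrow: the ratio of the highest to the lowest of the 24 samples was 2.13 for Lpl and 40.7 for Mmp12.

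Fabp5, a carrier of fatty acids within cells, had 3078 normalized counts in A2, 1720 in B2, 1732 in C2 and 1722 in G2, the highest of each letter. The other samples had 633 to 1637, with B3 (1637) the nearest to B2. Close copies of Fabp5 exist in rodent genomes, and how reads shared with them were counted is not stated.

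**Figure D2:**
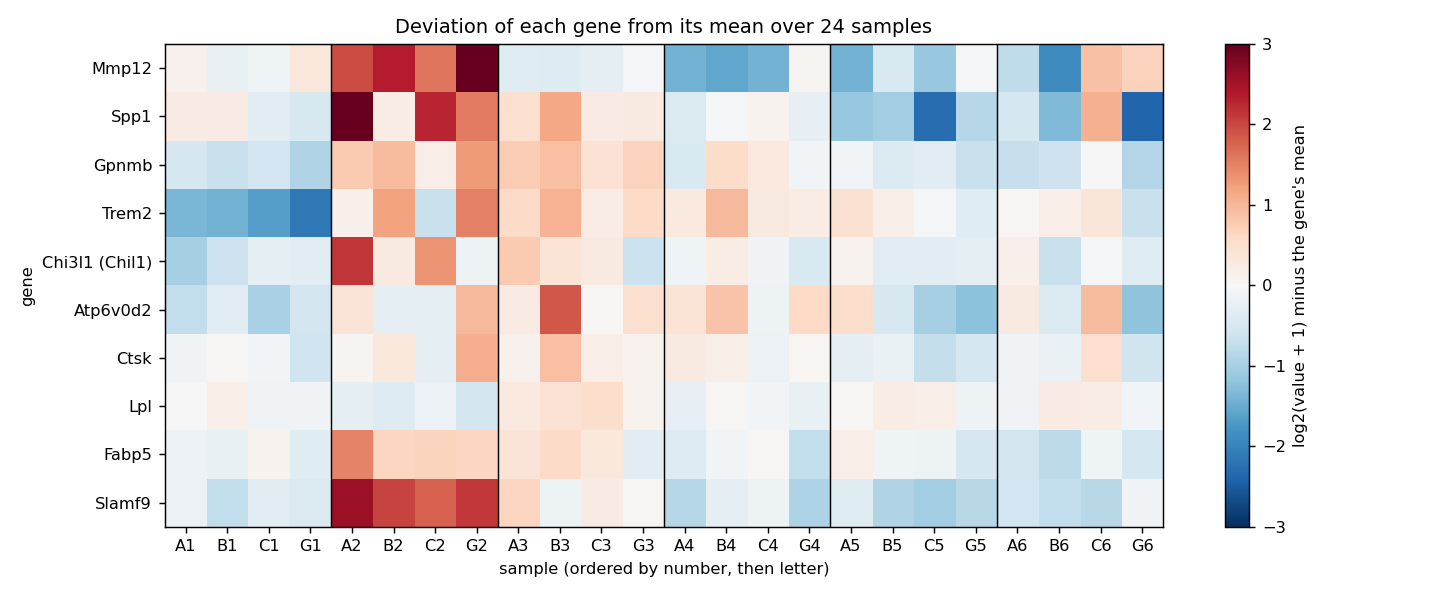
Each cell gives log2(value + 1) of a gene in a sample less that gene's average across samples, with samples ordered by number and then letter. Mmp12 and Slamf9 are red in all 4 samples numbered 2, Spp1 is red in A2, C2 and G2 but pale in B2, and Trem2 is blue in all 4 samples numbered 1.

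Over the 10 members, 8 passed a test for any difference among the 6 numbers (limma, Benjamini-Hochberg adjusted p under 0.05), where 31.5% of all genes passed. Atp6v0d2 and Ctsk did not. In number 2 against the other numbers, 6 members were called higher and 1, Lpl, lower, and 11.5% of all genes were called higher and 10.3% lower, or 21.8% in either direction. The called members were Mmp12, Spp1, Gpnmb, Chi3l1, Fabp5 and Slamf9 in the upward direction. The median log2 difference was 1.0 over the members and 0.01 over all genes. Because the members were chosen with these contrasts known, nothing is read from the counts. Without A2 the calls over all genes dropped from 6691 to 3542, while the members gave 6 higher and 1 lower again.

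The 4 samples numbered 2 did not share a common order of the members. Mmp12, Gpnmb, Trem2 and Ctsk each fell in the order G2, B2, A2, C2, which 4.86% of the 21922 genes with a mean of at least 10 also had. Spp1 and Fabp5 had the order A2, C2, G2, B2 (6.74% of genes), and Chi3l1 the order A2, C2, B2, G2 (12.7%). The ratio of the highest to the lowest of these 4 samples was 7.80 for Spp1, 4.87 for Chi3l1, 4.53 for Trem2 and 3.54 for Mmp12, but 1.72 for Slamf9 and 1.31 for Lpl. Each sample is the only one of its letter and number, so these orders have no replicate.

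**Figure D3:**
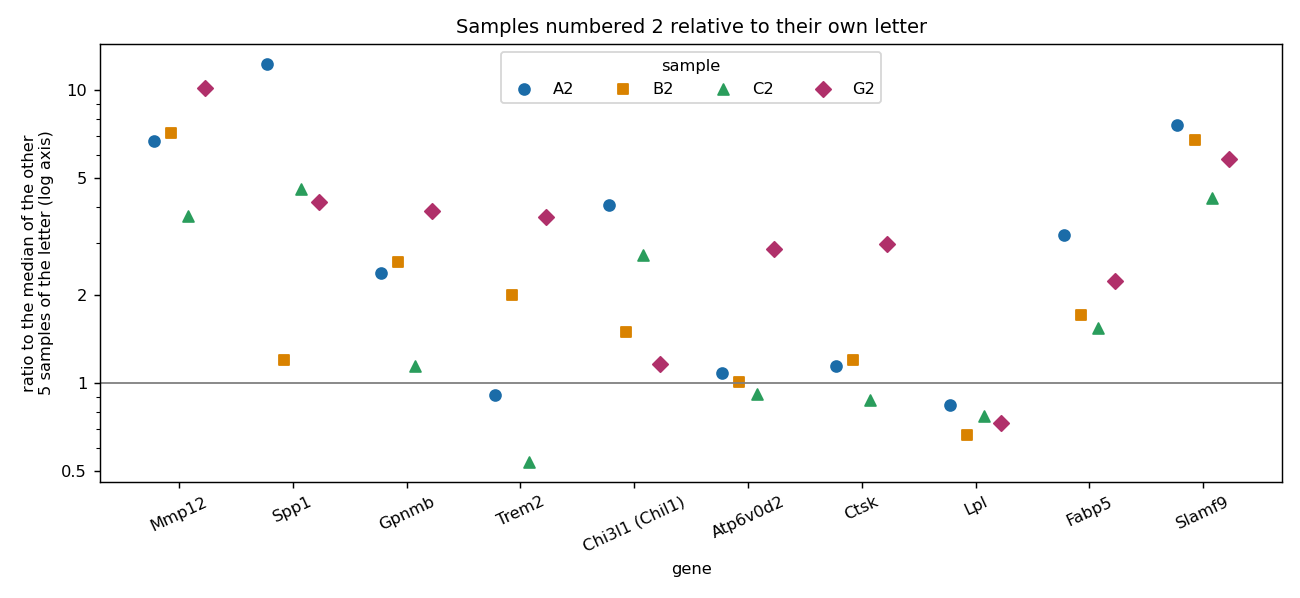
Ratio (log axis) of each sample numbered 2 to the median of the other 5 samples of its letter, 1 point per letter, with a line at 1. Mmp12 and Slamf9 lay above 3.7 in all 4 letters, Lpl lay below 1 in all 4, and Trem2 ran from 0.539 in C2 to 3.68 in G2.

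The second question was whether the letters differ. In the limma F test over the 4 letters, 0 of the 10 members passed at an adjusted p under 0.05, where 0.00652% of all genes passed. At an unadjusted p under 0.05 there were 0 members, and 3.91% of all genes. In the pairs, 0 members were called in each of 6 contrasts. The share of all genes called was 0% in each of the 3 contrasts that do not hold G, 0.00652% in G against A, 0.00326% in G against B and 0.00652% in G against C. At an unadjusted p under 0.05 only Lpl was found, in the contrasts of G with B and with C. The share of all genes at that p was 3.58% in B against A, 2.98% for C with A, 1.82% for C with B, 8.15% in G against A, 3.67% in G against B and 4.03% in G against C. With number as a block there were again 0 members at an adjusted p under 0.05, and of all genes 0.0391% passed for any letter, 1.27% in G against A, 0.00652% in G against B and 0.0359% in G against C. At an unadjusted p under 0.05 the blocked fit held 3 members for any letter (Mmp12, Lpl and Fabp5), 4 in G against A with Chi3l1 added, and 3 each in the contrasts of G with B and with C, where 9.74%, 15.2%, 7.44% and 8.06% of all genes were. It held 1 member each in B against A (Lpl), C with A (Lpl) and C with B (Trem2), and 7.84%, 6.51% and 2.57% of all genes. No other test tool was run on these contrasts.

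Mmp12 had a lowest, median and highest value of 61.3, 112 and 647 normalized counts in A. The same values were 44.1, 123 and 857 in B, 61.5, 144 and 508 in C, and 161, 193 and 1797 in G. The ranges overlap, and the G samples had the highest minimum and median. The log2 difference of G was 1.06 against A, 1.11 against B and 0.82 against C, each with an SE of 0.70 in the fit without number (limma adjusted p of 0.727, 1 and 1). Between samples of the same number, G was above A in 6 of 6 pairs and above B in 6 of 6, as for 3.52% and 2.12% of all genes. G was above C in 5 of 6 pairs. The share of all genes with G above C in at least 5 pairs was not counted, and in all 6 pairs it was 1.96%. With number as a block the SE was 0.31 and the adjusted p 0.0946, 0.324 and 0.481. Among samples not numbered 2, G had 161 to 267 and B 44.1 to 141, without overlap, whereas A reached 180 and C 305. How many of all genes have no overlap between G and B there was not counted.

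Lpl had 22352, 25841 and 32676 in A, 20773, 30778 and 36194 in B, 23923, 28173 and 38991 in C, and 18281, 24565 and 28664 in G, in the same order of lowest, median and highest. The log2 difference of Lpl in G was -0.12 against A, -0.30 against B and -0.27 against C, each with an SE of 0.13 (limma adjusted p of 0.849, 1 and 1), and with number as a block an SE of 0.06 (adjusted p of 0.321, 0.14 and 0.0897). Chi3l1 had a narrow range in G, 4852 to 6815, and a wide range in A, 3780 to 33213. Its log2 difference of -0.71 in G against A was the lowest of any member in that contrast. For Slamf9, B had a median of 227, and the medians of A (264), G (266) and C (270) lay close together.

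The members were then compared with each other across the 24 samples, as a description, since the samples share numbers and letters. Of 45 pairs, 37 had a positive Pearson r of log2 values, with a median of 0.43. The closest pairs were Fabp5 with Slamf9 (r = 0.84), Atp6v0d2 with Ctsk (0.80), Chi3l1 with Fabp5 (0.80), Mmp12 with Slamf9 (0.77) and Gpnmb with Trem2 (0.75). The lowest r was that of Mmp12 with Lpl (-0.56).

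The relations of Mmp12 changed when the 4 samples numbered 2 were left out. Over the remaining 20 samples its r fell from 0.77 to 0.12 with Slamf9 and from 0.56 to -0.05 with Fabp5. With Gpnmb it fell from 0.44 to -0.15, so its likeness to Slamf9, Fabp5 and Gpnmb rests on number 2. With Trem2, r was only 0.09 over all 24 samples and -0.43 over the 20. Atp6v0d2 with Ctsk stayed at 0.84, Gpnmb with Trem2 at 0.73 and Spp1 with Ctsk rose to 0.82. Lpl turned from negative to positive with Gpnmb (-0.08 to 0.53), with Fabp5 (-0.15 to 0.58) and with Slamf9 (-0.46 to 0.34).

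**Figure D4:**
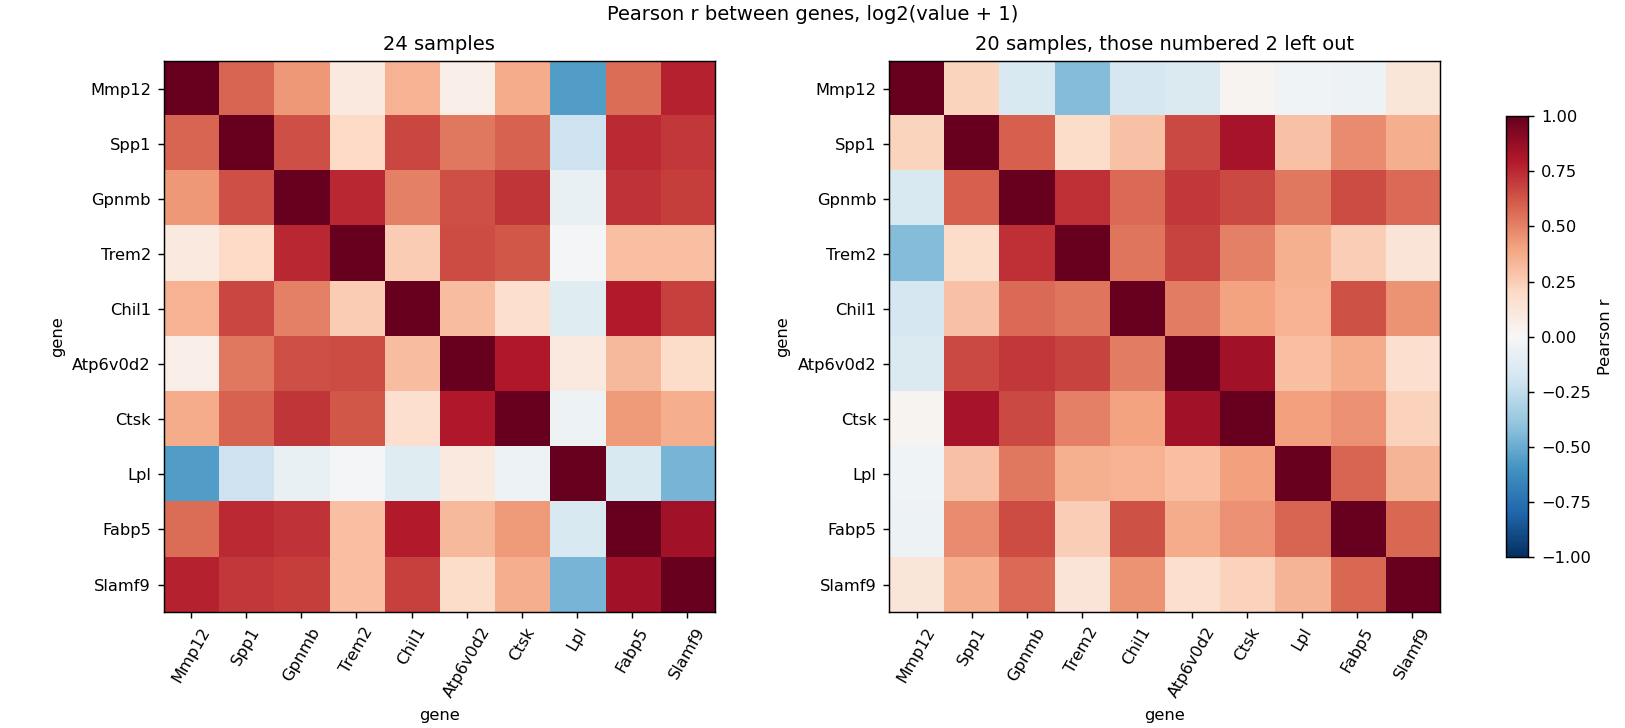
Pearson r of log2(value + 1) between the 10 genes over all 24 samples (left) and over the 20 samples not numbered 2 (right), on a scale from -1 to 1. On the right, Mmp12 has values near or below 0 apart from Spp1 (0.23) and Slamf9 (0.12), and Lpl is positive with every gene but Mmp12.

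Genes outside the set with the most similar profile were ranked by Pearson r over 24 samples among 21922 genes. For Mmp12 they were Fcrls (r = 0.89), Mycl (0.86), Timd4 (0.86), Gpr65 (0.85) and Parp8 (0.84). Over the samples not numbered 2, their r was 0.60, 0.53, 0.68, 0.75 and 0.64 in the same order. Fcrls, an Fc receptor-like gene, had 1026 normalized counts in A2, 1232 in B2, 853 in C2 and 2070 in G2, and at most 511 elsewhere. Timd4, a receptor for phosphatidylserine on resident macrophages, had 310 in G2 and 272 in B2, with a median of 93.7. For Spp1 they were Ly6f (0.89), Ly6g (0.87), Tub (0.87), Slc26a4 (0.86) and Ly6g2 (0.85), each highest in A2. Slc26a4, an anion exchanger of airway epithelium, had 7612 in A2 and 3499 in C2, with a median of 590. Ly6f, Ly6g and Ly6g2 are near-identical family members, and reads may be split between them. For the mean of the 10 members they were Cd68 (0.96), Fuca1 (0.95), Cd300c (0.95), Fcgr2b (0.94) and Atp6v1b2 (0.93). These are a lysosomal glycoprotein of macrophages, a lysosomal fucosidase, a myeloid receptor, an inhibitory Fc receptor and a proton pump subunit.

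Lists of macrophage genes were read in the same contrast of number 2, against 11.5% of all genes higher and 10.3% lower. Without A2 the shares of all genes were 6.13% and 5.42%, and without A2 and C2 4.93% and 4.67%. Of 13 general macrophage genes 10 were higher and 0 lower, with a median log2 difference of 0.83, and this count was also 10 without A2. Itgam, an integrin of myeloid cells, had the largest difference (1.78), Cd68 had 1.09, and Csf1r, the receptor for the macrophage growth factor, had 0.01 (SE 0.07) and was not called. Their summed level was 157642 to 237292 in number 2 and 127368 to 224667 in the other samples. Most of it was Lyz2, with 100700 of the 157642 in C2 and 175700 of the 237292 in B2. Lyz2 was not called (0.23, SE 0.11). The macrophage score, the mean over the list of log2 values centred per gene, was higher in number 2 by 1.13 for A2, 0.63 for B2, 0.58 for C2 and 0.64 for G2. The mean of these 4 is 0.75, beside which Mmp12 (2.81), Slamf9 (2.54) and Spp1 (2.18) had larger differences, and Gpnmb (0.97), Chi3l1 (1.08) and Fabp5 (1.04) slightly larger ones.

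Subtype lists were read in the same way. Of 12 genes of interstitial macrophages and monocytes, 8 were higher and 1 lower, with a median of 0.996, and these were 8 and 1 without A2, and 7 and 1 without A2 and C2. Ms4a7 had 2.13, the complement gene C1qa 1.30, with 5627 to 9365 normalized counts in number 2 against at most 3621 in the other samples, and Lyve1, a hyaluronan receptor shared with lymphatic vessels, -0.97. Of 14 alveolar macrophage genes 2 were higher, Siglec1 (1.19) and Itgax (0.67), and 3 lower, Krt79 (-0.77), Plet1 (-0.58) and Car4 (-0.38), with a median of -0.22. Without A2 and C2, 1 was higher and 3 lower, and the median was 0.02. Car4 is also a gene of lung capillaries. The summed level of the list was 39445 to 55013 in number 2 and 39591 to 87941 elsewhere.

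**Figure D5:**
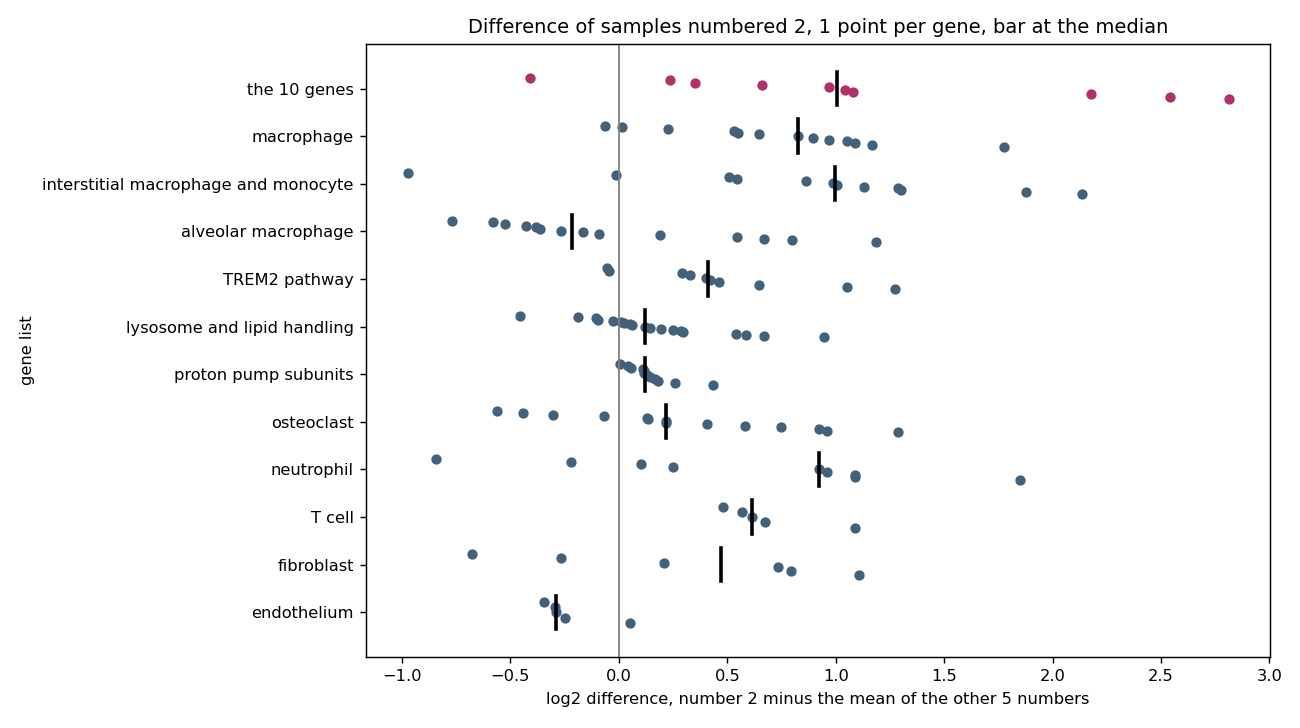
Log2 difference of number 2 from the mean of the other 5 numbers, 1 point per gene in 12 lists, with a bar at the median and a line at 0. The interstitial macrophage and monocyte genes lay mostly to the right of 0, and the alveolar macrophage genes on either side.

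The TREM2 pathway list had 8 of 10 genes higher and 0 lower, with a median of 0.41, and 6 of 10 without A2 and 4 of 10 without A2 and C2. Tyrobp, the adaptor of TREM2, had a log2 difference of 0.65, with 6244 to 9709 normalized counts in number 2 against 3764 to 6824 in the other samples, so that C2 overlapped samples of other letters. Apoe, a lipoprotein ligand of TREM2, had 1.27, with 91930 in A2, 71710 in B2, 73080 in C2 and 169300 in G2 against 25940 to 52540 in the other samples. Adam10, a protease that sheds TREM2, had -0.05 and was not called. Trem2 itself was lower in A2 and C2 than the median of its letter (ratios of 0.909 and 0.539). For Tyrobp, Apoe and Cd33, number 2 was the highest of its letter in all 4 letters, as for 2.87% of all genes. The remaining genes of the list did not have this in all 4 letters.

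Of 19 genes of lysosomes and lipid handling, 8 were higher and 2 lower, with a median of 0.12, and 6 and 1 without A2 and 5 and 1 without A2 and C2. Ctsz, a cathepsin, was highest (0.94), Lgals3, galectin-3, had 0.59, and the tetraspanin gene Cd9 was lowest (-0.46). Of 12 proton pump subunits 7 were higher and 0 lower, but without A2 only 2 were, and without A2 and C2 only 1. The share of all genes called higher fell as well, from 11.5% to 6.13% and 4.93%. Their differences were small, from 0.01 for Atp6ap2 to 0.44 for Atp6v1b2. Of 14 osteoclast genes 6 were higher, led by the transcription factor gene Tfec (1.29), and 1 was lower, Itgb3. Without A2 there were 5 and 2, and without A2 and C2 6 and 2. Acp5, the tartrate-resistant acid phosphatase, had 0.22 and was not called. Dcstamp, a fusion gene of osteoclasts, had the lowest difference, -0.56, and was not called.

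Among 15 measured substrates, receptors and inhibitors of the members, 4 were higher and 5 lower, 3 and 3 without A2, and 2 and 3 without A2 and C2. Timp1, an inhibitor of metalloproteinases, had the highest difference (1.21), with 11490 normalized counts in A2, 2746 in B2, 4766 in C2 and 2691 in G2 against at most 2541 elsewhere. Eln, the elastin that MMP12 cuts, had 0.86, with 245700 in B2 and 220900 in G2 but 45380 in A2 and 92010 in C2. A2 and C2 lay within the range of the other samples, which reached 217500 in C1. Cd44, the osteopontin receptor, had 0.39. Gpihbp1, which anchors lipoprotein lipase to capillaries, was lowest (-0.67), with 1039 to 2034 in number 2 and 1520 to 4359 elsewhere. Endothelial genes moved with it, 4 of 5 lower with a median of -0.29, 2 of 5 without A2 and 4 of 5 without A2 and C2. Their part in the level of Lpl was not tested. Of 12 upstream signals 5 were higher, but 1 without A2, with or without C2. Ifng had the highest difference (2.38), highest in A2 and at 5.20 to 22.4 in the other samples numbered 2, and Il4 the lowest (-0.51), near 0 in all samples.

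Markers of other cells that can express members were read beside them. At an unadjusted p under 0.05 by limma, 5122 of 30667 genes were higher and 4743 lower. Without A2 these were 3737 and 3534, and without A2 and C2 3391 and 3297. Cartilage genes, among them Acan, were not called (0 of 7 higher, also 0 at an unadjusted p under 0.05 by limma), with a summed level of 222 to 514 in any sample. The highest sum was that of A2. There Col2a1 had 112, Acan 38.6 and Hapln1 15.9, against at most 24.8, 12.2 and 4.02 in the other samples. Comp and Matn1 were also highest in A2, and Chad and Snorc were not. The part of cartilage in the members' levels was not tested. Adipocyte genes had a summed level of 13199 in A2 and up to 7664 elsewhere, and 1 of 6 was higher, 0 without A2 (1 at an unadjusted p under 0.05 by limma) and 1 without A2 and C2. Fibroblast genes had 3 of 6 higher, Col1a1 by 1.11, and Pdgfra lower by -0.68. High levels of this list were not particular to number 2, where the sum was 283902 to 377429. It was 433202 in A1, 457123 in B1, 439716 in C1 and 348420 in G1. Col1a1 reached 98920 in C1, above every sample numbered 2. Alveolar type 2 genes had 3 of 7 higher, up to 0.51 for Sftpa1, and 6 of 7 without A2 and C2, where the median went from 0.13 to 0.41. Neutrophil genes had 2 of 9 higher, led by Retnlg (1.85), with a median of 0.92. Without A2 this was 1 of 9 with a median of 0.40, and without A2 and C2 it was 0 of 9 with a median of -0.14 (1 at an unadjusted p under 0.05 by limma). Their score was higher by 1.46 in A2 and 1.04 in C2, 0.21 in B2 and lower by -0.39 in G2. Their part in the members' levels was not tested.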

How the data were processed

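Expression in 24 rat lung samples was taken from a table that the authors deposited, with 30667 genes. The deposited signal values were normalized by the authors, judged by their near-equal sums and broken numbers. Per the submitters' processing notes, STAR and the mouse build GRCm38 were used. The counting tool, annotation and normalization are not given in the sources used here. Raw depth is unknown, so no counting interval is given. The members and gene lists were chosen with earlier results of these data known. Groups are the letters of the titles. limma-trend (limma 3.58.1, R 4.3.3) was run on log2(value + 1) over all genes with a mean of at least 0.5, which was every gene. Letters were fitted as 4 means, and numbers with letter as a term. P-values are two-sided, adjusted by Benjamini-Hochberg over all genes, with a threshold of 0.05. They measure the spread between samples, which may be technical, since no label says that samples are separate animals. Fold changes on this scale understate changes of low genes. The fit was also run on simulated data, drawn independently for each sample around a single mean per gene. These held no samples that stand apart and no effect of number beyond the contrast tested. They therefore do not show how the fit performs on the present samples. Named genes are the members, the 5 closest genes by r, and in each list the highest, the lowest and 13 preset markers. Others were named after their values were seen. To see whether numbers pair samples, deviations from letter means were correlated between same-numbered samples over 21922 genes. All 6 pairs exceeded 0.1 in B against A (0.17 to 0.59) and C against B (0.13 to 0.60). In the other 4 contrasts most did, 5 of 6 in C against A and G against B. In G against A and G against C it was 4 of 6. Alternatives were another pseudocount, filters, scalings, a number block and leaving out samples.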

Additional observations from a re-analysis of the deposited data

Results flagged for a closer look

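Within each letter, the highest or lowest value counted as far from the rest if more than 0.625 of the letter's range separated it from its neighbour. This was so in 18 of 40 groups of 6 values, and 14 of the 18 were samples numbered 2. Chance flags about 2 of 40, and over all genes with a mean of at least 10 the share was 10.3% of groups. The members were chosen with high values in number 2 known, so nothing is read from the number. Slamf9 was picked in all 4 letters, at 1885 normalized counts in A2, 1294 in B2, 1096 in C2 and 1382 in G2. Mmp12 was picked at 647 in A2, 857 in B2 and 1797 in G2, and Spp1 at 1357 in A2 and 444 in G2. Chi3l1 was picked at 33213 in A2 and 19125 in C2, and Fabp5 at 3078 in A2 and 1722 in G2. Ctsk was picked at 2034 in G2 and 1789 in B3. Atp6v0d2 was picked at 371 in B3, at 198 in C6 and, as a low value, at 60.6 in A1. Gpnmb, Trem2 and Lpl had no such sample.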

How the results depend on the processing

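In the tests of letters, 0 members were called under every setting run, with samples left out or the replicate block included. With the block, the lowest adjusted p of a member was 0.0554 (Lpl over the 4 letters). In B against A and C against B, where all 6 same-numbered pairs had a correlation over 0.1, the block changed no call. The other contrasts had 4 or 5 such pairs of 6, so pairing by number is not confined to these. Over all genes the replicate block gave 12 genes for any letter, 391 in G against A, 2 in G against B and 11 in G against C. Quantile normalization and 75th percentile scaling each gave 1 gene for any letter. Without the 4 samples numbered 2 there was 1 gene for any letter, in G against A and in G against C, and without A4 and B4 together (chosen after seeing the data) 1 for any letter and in G against A. Leaving out 1 sample gave 1 to 2 genes for any letter, 1 to 4 in G against A, 1 to 2 in G against B and in G against C, and 3542 (without A2) to 7111 for number 2. Called members then ranged from 8 to 10 for any number and from 7 to 8 for number 2, where Trem2 joined. The difference of Atp6v0d2 in number 2 turned to -0.13 without G2, and reached 0.51 without B2. After subtracting the macrophage score (chosen after seeing the data), 3 members fell below 0 in number 2, Trem2 (-0.0859), Atp6v0d2 (-0.51) and Ctsk (-0.39), while Mmp12 stayed at 2.07 and Slamf9 at 1.80. Apart from changes that follow from fewer samples, the cause was not tested.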

Other observations

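Lists of other immune cells, the cell cycle and red blood cells were read in number 2. The shares of all genes were again 11.5% called higher and 10.3% lower. Without A2 they were 6.13% and 5.42%, and without A2 and C2 4.93% and 4.67%. All 5 T cell genes were higher, led by Cd2 (log2 difference 1.09), and 5 were higher without A2 but 3 without A2 and C2. Among dendritic cell genes 3 of 7 were higher and 1, Zbtb46 (-0.31), lower, while without A2 and C2 these were 4 and 0. The antigen presenting gene H2-Ab1 had 22770 to 43860 normalized counts in number 2 against at most 16810 in the other samples. Of 4 B cell genes 0 were called (1 at an unadjusted p under 0.05 by limma), but 1 was higher without A2 and 2 without A2 and C2. Of 5 mast cell and eosinophil genes 0 were called (0 at an unadjusted p under 0.05 by limma). At that p, 5122 of all 30667 genes were higher and 4743 lower, and without A2 and C2 3391 and 3297. Of 6 cell cycle genes 5 were higher, and 4 without A2 and C2, with Top2a at 4362 in A2, 1039 in B2, 2638 in C2 and 1510 in G2. Red blood cell genes were lower in 4 of 5, with a median of -1.10, in 2 of 5 without A2 and in 0 of 5 without A2 and C2 (4 at an unadjusted p under 0.05 by limma, with a median of -0.83).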
